A study of Mus musculus with 2 samples.

Results

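The 9 forkhead genes Foxd1, Foxd2, Foxd3, Foxd4, Foxi1, Foxi2, Foxi3, Foxe1 and Foxe3 were examined for Foxf2 binding in the developing palate, out of 22359 protein-coding genes on the autosomes, X and Y. They were chosen by gene family from the forkhead genes, when peaks at Foxd1 and Foxi2 and the absence of an assigned peak at Foxe1 were already known, so their peak values are given as a description. A peak was counted for a gene when its centre lay within 100 kb of the transcription start site (TSS), and it was noted whether the TSS of another protein-coding gene was nearer. The data were 1 anti-FLAG chromatin immunoprecipitation (ChIP) library of 26849463 sequenced tags, set against 1 input library of about 19230000 tags that received no antibody. Both came from palatal shelves of E13.5 mouse embryos homozygous for Foxf2 carrying a 3xFLAG tag at its endogenous locus, 50 pairs of shelves being collected, and neither library had a replicate. Every group therefore carried the tagged allele, no untagged control entered the comparison, and shelves hold epithelial, vascular and nerve cells beside mesenchyme. A peak says where anti-FLAG recovery exceeded input in these shelves. Without an untagged control, tagged Foxf2 cannot be told apart from antibody background, and expression was not measured.

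Forkhead proteins share a winged-helix DNA-binding domain and recognise closely related AT-rich sequences, of which GTAAACA is the canonical form. Foxf2 is made in mesenchyme derived from cranial neural crest and is needed for closure of the palate in mice. Foxd genes act in neural crest and mesenchyme, Foxi genes in the ectoderm of the pharyngeal arches and sensory placodes, and Foxe genes in the thyroid primordium and the lens.

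Of the 9 genes, 7 had at least 1 Foxf2-FLAG peak within 100 kb, and Foxd3 and Foxi3 had none. The background share was high, since 54.9% of all protein-coding genes had such a peak. The 7 genes shared 15 distinct peaks, 7 of them at Foxd1 and 4 common to the neighbours Foxd2 and Foxe3. In 8 of the 15, the Foxd, Foxi or Foxe gene itself had the nearest TSS (5 at Foxd1 and 1 each at Foxd2, Foxi1 and Foxi2), and in the other 7 another gene was nearer. Thus 4 of 9 genes had an assigned peak, meaning one for which no other protein-coding TSS was closer, against 22.0% of all genes. With the limit at 50 kb in place of 100 kb, 4 of the 9 genes had a peak (37.7% of all genes) and 2 had an assigned one. No share of all genes with an assigned peak is given at 50 kb, so that count of 2 cannot be set against one.

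**Figure D1:**
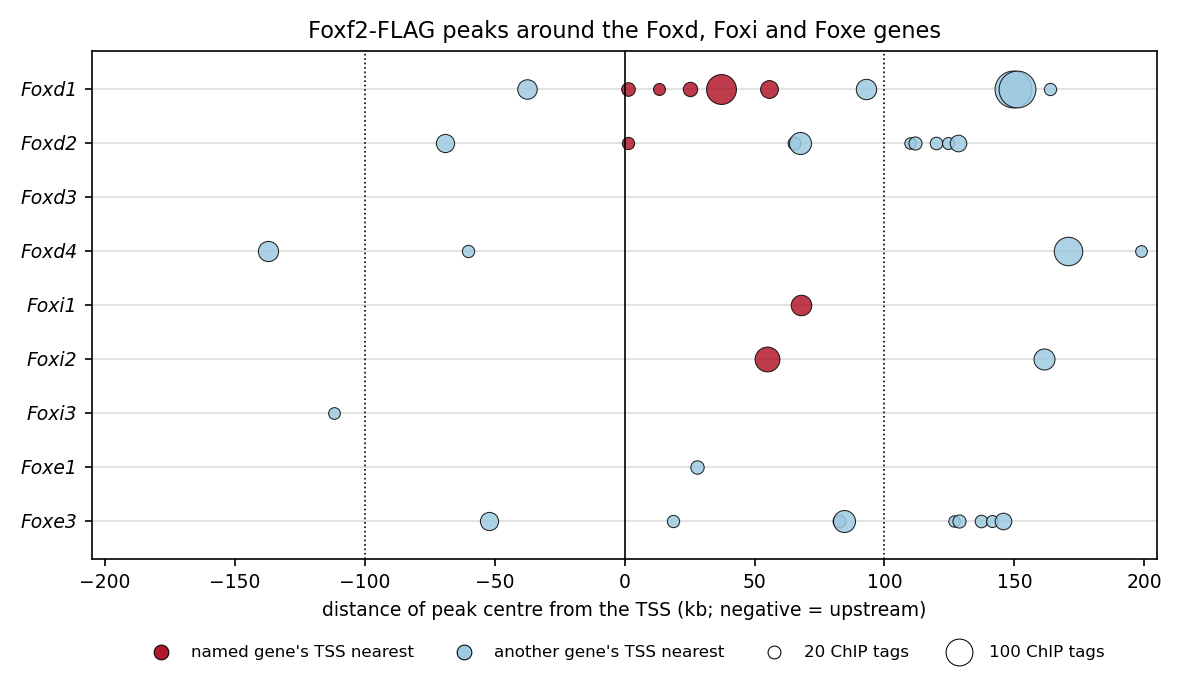
Positions of Foxf2-FLAG peaks within 200 kb of each TSS (x axis, kb, in the direction of transcription; 1 row per gene); circle area grows with ChIP tags, red circles have the named gene's TSS nearest, blue ones another gene's, and dotted lines mark 100 kb. Foxd1 has 5 red circles between 1.4 and 55.6 kb downstream, Foxd3 has none in the window, and Foxd2 and Foxe3 show the same peaks.

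The sequences at the centres of 7 of the 15 peaks are given as examples of strong and weak peaks. Each is the central 200 bases on the plus strand of mm9, read from the NCBIM37 assembly, with capitals marking a forkhead site, here GTAAACA or ATAAACA, or the variants GTAAATA and ATAAATA, on either strand. Names give the distance from the TSS. The first 3 are strong peaks with sites.
Foxi1 +67.8 kb, chr11:34040159-34040358: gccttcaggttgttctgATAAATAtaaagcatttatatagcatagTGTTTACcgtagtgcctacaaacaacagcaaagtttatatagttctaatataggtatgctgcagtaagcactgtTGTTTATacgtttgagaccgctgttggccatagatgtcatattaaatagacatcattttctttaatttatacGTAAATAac
Foxi2 +54.7 kb, chr7:142656685-142656884: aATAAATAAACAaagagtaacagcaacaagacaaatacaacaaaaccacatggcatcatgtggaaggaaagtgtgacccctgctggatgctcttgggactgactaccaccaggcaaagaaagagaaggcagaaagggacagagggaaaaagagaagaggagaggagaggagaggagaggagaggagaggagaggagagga
Foxd2 +67.4 kb, chr4:114514007-114514206: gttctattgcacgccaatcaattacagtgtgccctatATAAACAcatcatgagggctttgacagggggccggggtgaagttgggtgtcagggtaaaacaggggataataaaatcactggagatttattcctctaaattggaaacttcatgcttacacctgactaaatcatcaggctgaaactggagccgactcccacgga
The next is the weakest peak by ChIP tags, which holds the canonical site.
Foxd1 +13.3 kb, chr13:99137401-99137600: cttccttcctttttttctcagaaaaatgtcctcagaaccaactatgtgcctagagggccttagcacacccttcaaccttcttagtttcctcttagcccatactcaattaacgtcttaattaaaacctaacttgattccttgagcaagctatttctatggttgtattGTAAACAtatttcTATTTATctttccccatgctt
The last 3 are GC-rich and hold no site. They are the peak with the most tags among the 15 and those within the coding sequences of Foxd1 and Foxd2.
Foxd1 +37.0 kb, chr13:99161102-99161301: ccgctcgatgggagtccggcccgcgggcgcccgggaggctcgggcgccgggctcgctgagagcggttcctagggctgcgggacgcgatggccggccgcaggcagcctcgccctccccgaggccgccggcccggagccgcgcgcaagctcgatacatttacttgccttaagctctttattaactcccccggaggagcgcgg
Foxd1 +1.4 kb, chr13:99125514-99125713: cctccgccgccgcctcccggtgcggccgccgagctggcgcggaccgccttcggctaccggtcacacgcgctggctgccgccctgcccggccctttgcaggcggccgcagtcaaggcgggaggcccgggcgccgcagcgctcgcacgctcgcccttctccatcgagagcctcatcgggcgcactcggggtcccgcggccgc
Foxd2 +1.3 kb, chr4:114580074-114580273: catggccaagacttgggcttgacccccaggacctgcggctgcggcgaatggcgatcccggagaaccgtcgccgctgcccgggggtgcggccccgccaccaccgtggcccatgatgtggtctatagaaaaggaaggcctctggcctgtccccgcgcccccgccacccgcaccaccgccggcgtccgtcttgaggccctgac

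Foxd1, a regulator of stromal and mesenchymal progenitors, had the most peaks. The gene lies at chromosome 13:99124200-99126660 on the plus strand (GENCODE vM1, mm9) and consists of 1 exon. It had 7 peaks within 100 kb, a number reached by 0.210% of protein-coding genes, and 5 assigned peaks, reached by 0.376%. The nearest other TSS, of Btf3, lay 37.2 kb away. The 7 peaks together held 340 ChIP and 19 input tags.

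The Foxd1 peak with the most tags was intergenic, 37.0 kb downstream of the TSS at chromosome 13:99160731-99161674. It held 125 ChIP and 7 input tags, a 12.8-fold excess after scaling to equal depth (95% interval 6.03 to 32.5, counting error only). Its score, the peak caller's own measure of strength, was 74, and 5.16% of the 9165 peaks scored as high or higher. Its centre was 73.0% GC, with a CpG observed-to-expected ratio of 1.09, and held no forkhead site. ATAAATA occurred in it 196 bp before the centre and 381 bp after it.

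Closer to Foxd1 the peaks held fewer ChIP tags. The one 1.4 kb downstream of the TSS (99125288-99125940) was centred in the coding sequence of the single exon and held 23 ChIP and 1 input tag (16.5-fold, 2.68 to 679). The peak at +13.3 kb (99137251-99137751) held 17 ChIP tags and no input tag, for which the authors' file writes 0.5 and gives a fold of 24.4. With 0 input tags the exact interval has a lower bound of 2.96 and no upper bound. At +25.3 kb (99149218-99149844) there were 26 ChIP and 1 input tag (18.6-fold, 3.06 to 763). These 3 peaks scored 18, 18 and 25, so each was at or below the median of all peaks, 25.

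Farther out, the peak at +55.6 kb (99179395-99180215, score 36) held 42 ChIP and 3 input tags (10.03-fold, 3.20 to 50.6). It contained 7 forkhead sites, the most of the 15 peaks, but none within 100 bp of its centre. GTAAACA lay 113 bp before the centre, and 3 overlapping sites of a tandem repeat lay 261 to 269 bp after it. The peak at +92.8 kb (99216766-99217266) was the one just inside the distance limit, and the predicted gene Gm10320 was nearer to it (44.9 kb). It held 56 ChIP and 4 input tags (10.03-fold, 3.71 to 38.1), yet scored 18. Among 5997 peaks of 500 bp the median ratio of tags to score was 0.978, and 2.75% had more than 2 times as many tags as their score, this one included. The peak upstream, at -37.6 kb (99086229-99086983), had 51 ChIP and 3 input tags (12.2-fold, 3.94 to 61.0). It was centred in a coding exon 0.275 kb from the TSS of Btf3, which encodes a subunit of the nascent polypeptide-associated complex.

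Foxd2, a gene of facial and kidney mesenchyme, and Foxe3, which is required for lens development, are neighbours on the minus strand of chromosome 4. Foxd2 spans 114578885-114581503 and Foxe3 114597681-114598657, and their TSSs are 17.2 kb apart. The same 4 peaks lay within 100 kb of both, a number reached by 3.82% of protein-coding genes, and together held 148 ChIP and 8 input tags. These 4 peaks are not independent evidence for 2 genes.

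Only 1 of the 4 had Foxd2 as its nearest gene and none had Foxe3. It was centred in the Foxd2 coding sequence, 1.3 kb downstream of the Foxd2 TSS and 18.5 kb downstream of the Foxe3 TSS (114579924-114580424). It held 18 ChIP and 1 input tag (12.9-fold, 2.04 to 537) and scored 19, a score that 78.0% of peaks reached. It resembled the peak in the Foxd1 exon in its place, its tag number and its GC content of 71.0% against 79.0% at Foxd1. Every 32-base word of either peak occurred once in the genome, so the paralogues do not share such words there.

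The strongest of the 4 lay at 114513857-114514357, 67.4 kb downstream of the Foxd2 TSS and 84.5 kb downstream of the Foxe3 TSS. It held 66 ChIP and 3 input tags (15.8-fold, 5.16 to 78.4), with a score of 66 that 7.16% of peaks reached. It was in an intron of the predicted gene Gm12830, whose TSS was 19.8 kb away, and of the noncoding 9130410C08Rik. ATAAACA was its 1 forkhead site, 60 bp before the centre. A weaker peak 65.2 kb from Foxd2 (114516028-114516528, score 17) had 20 ChIP and 1 input tag (14.3-fold, 2.29 to 594), a GC content of 73.0% and no site. With noncoding genes counted, the TSS of a U1 small nuclear RNA was nearest to both, 3.62 kb from the stronger peak and 1.44 kb from the weaker. On the other side, the peak at 114650355-114651124 (score 37) lay in an intron of Cmpk1, a nucleotide kinase gene, 69.2 kb upstream of Foxd2 and 52.1 kb upstream of Foxe3. It held 44 ChIP and 3 input tags (10.5-fold, 3.37 to 52.9) and 4 forkhead sites, the nearest of them ATAAACA 55 bp before the centre.

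Foxd3 and Foxd4 had no assigned peak. Foxd3, a specifier of the neural crest (chromosome 4:99322990-99325362), had no peak within 200 kb, as was the case for 26.7% of protein-coding genes. Its nearest peak was 451 kb away, with 118 ChIP and 6 input tags and a score of 38. Foxd4, known from frogs for a role in early neural ectoderm (chromosome 19:24973455-24975799), had 1 peak, 60.4 kb upstream (25035910-25036410), with 18 ChIP and 1 input tag (12.9-fold, 2.04 to 537) and a score of 19. That peak lay 0.112 kb from the TSS of Cbwd1, was 64.5% GC and held no forkhead site. The next peak to Foxd4 was outside the limit, 137.1 kb upstream.

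Foxi1, which is required in the inner ear and in acid-secreting cells, had 1 peak, which held more forkhead sites in its central 200 bp than any other of the 15. The gene (chromosome 11:34104338-34108089, minus strand) had no other protein-coding TSS within 100 kb, the nearest being that of Fam196b at 107 kb. The peak was intergenic, 67.8 kb downstream at 34039947-34040572, and was the 1 peak within 500 kb of Foxi1. It held 57 ChIP and 2 input tags (20.4-fold, 5.40 to 173), with a score of 56 that 10.9% of peaks reached. All 4 of its forkhead sites, 1 of each of the 4 sequences, lay in the central 200 bp, and at least 4 sites were present there in 0.807% of all peaks. The TSS of a noncoding transcript, Gm12121, was 1.57 kb from its centre, so with noncoding TSSs counted Foxi1 lost this assignment and 3 genes kept one.

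Foxi2, a gene of the ectoderm of the arches and placodes, had the highest-scoring peak of the 15. The gene lies at chromosome 7:142602050-142605298, and the peak was intergenic, 54.7 kb downstream at 142656400-142657171. It held 85 ChIP and 4 input tags (15.2-fold, 5.73 to 57.1), and its score of 86 was reached by 3.21% of peaks. Its overlapping sites ATAAATA and ATAAACA lay 96 and 92 bp before the centre, at the edge of the printed window, which ends in a tandem repeat. Of its 32-base words, 83.8% occurred once in the genome, the lowest share of the 15 peaks, and the most frequent occurred 35536 times. The other 14 peaks had shares from 88.7% to 100%. Its SOX site (AACAAAG) is formed by the same bases as the end of the forkhead site, and it also held the RUNX sequence TGTGGTT on the minus strand.

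Foxi3, which acts in ectodermal placodes and the pharyngeal arches (chromosome 6:70906525-70911060), had no peak within 100 kb. The nearest lay just outside the limit, 111.8 kb upstream, 0.176 kb from the TSS of Eif2ak3 (70794473-70794973), with 16 ChIP and 1 input tag and a score of 17. Foxe1, the thyroid forkhead gene whose loss causes cleft palate in mice and humans (chromosome 4:46356481-46359284), had 1 peak 27.8 kb downstream (46384049-46384549). It held 22 ChIP and 1 input tag (15.8-fold, 2.55 to 650), scored 22, and contained no forkhead site over its whole 500 bp. The TSS of 5830415F09Rik was nearer, at 18.0 kb.

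None of the 9 genes had a peak within 1 kb of its TSS, a class that held 11.3% of protein-coding genes. Within 5 kb, Foxd1 and Foxd2 had one, 2 of 9 genes against 14.4% of all. Of the 15 peaks, 12 lay more than 20 kb from the nearest of the 9 TSSs, a share that was not set against that of other genes.

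**Figure D2:**
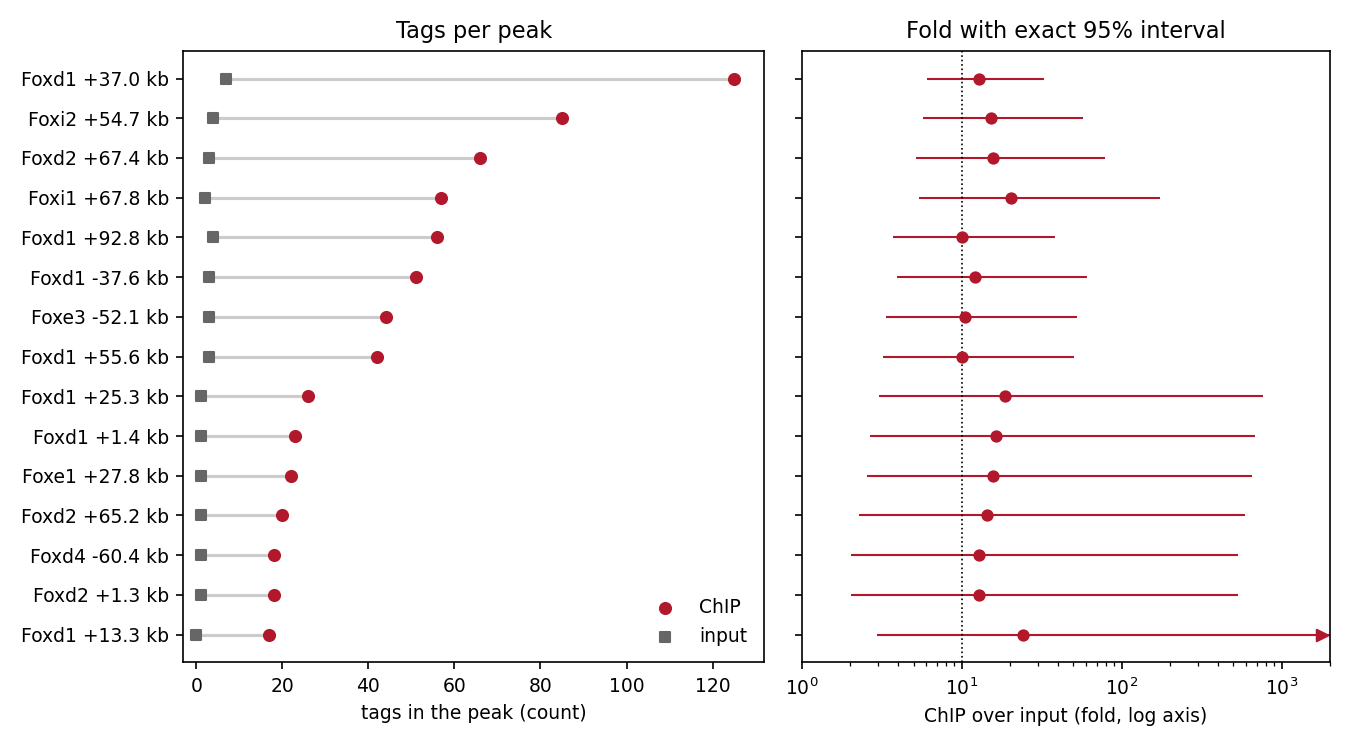
ChIP tags (red circles) and input tags (grey squares) in each of the 15 peaks, left, and the ChIP-over-input fold with its exact 95% interval on a log axis, right; each row is a peak named by the nearest of the 9 genes, the peak at -52.1 kb of Foxe3 being also that at -69.2 kb of Foxd2. Input tags are at most 7 in every peak, and intervals of peaks with 1 input tag reach above 500-fold; the arrow marks an interval with no upper bound, and the dotted line the 10-fold limit of the peak list.

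The 15 peaks had values within the range of the rest of the list. They held 17 to 125 ChIP tags (median 42) against 0 to 7 input tags (median 2), and the other 9150 peaks had medians of 30 and 2. The median score was 25 in both sets, and the median fold was 14.3 against 12.9. By score, 8 of the 15 were in the upper 50% of the list, the 1 with the median score of 25 included. The 15 peaks were wider, with a median of 625 bp against 500 bp for the others. For their width, ChIP tags were a median of 3.82 times those expected from an even spread over the genome. The others had 4.17 times, so relative to width the 15 did not exceed them in ChIP tags. Input tags were 0.333 times those expected, against 0.219 times in the others. Input was below this expectation in all 15, as in 95.2% of the other peaks, so each fold combined a high ChIP count with a low input count. That all folds exceeded 10 follows from the peak caller's limit, and the fold intervals make no allowance for this selection. When 1 tag was added to the ChIP and the input count of each of the 15 peaks, the median fold was 8.60, and 10 of the 15 folds were below 10. No such values are given for the other 9150 peaks, so this drop cannot be called particular to the 15.

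The 15 peaks fell into a GC-rich set and a set of lower GC content, divided at 60% GC, where they had a gap, after their values were seen. The median over all peaks was 46.0% GC. In 6 peaks the central 200 bp had 64.5% to 79.0% GC and CpG observed-to-expected ratios of 0.684 to 1.09, and none of the 6 held a forkhead site there. In the other 9, with 32.5% to 47.5% GC, 6 held a site. Over all peaks the shares with a site were 5.44% at 60% GC or more and 51.8% below, so the division at these genes was of the kind seen across the list. GC-rich peaks made up 6 of 15 here and 23.7% of all peaks.

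**Figure D3:**
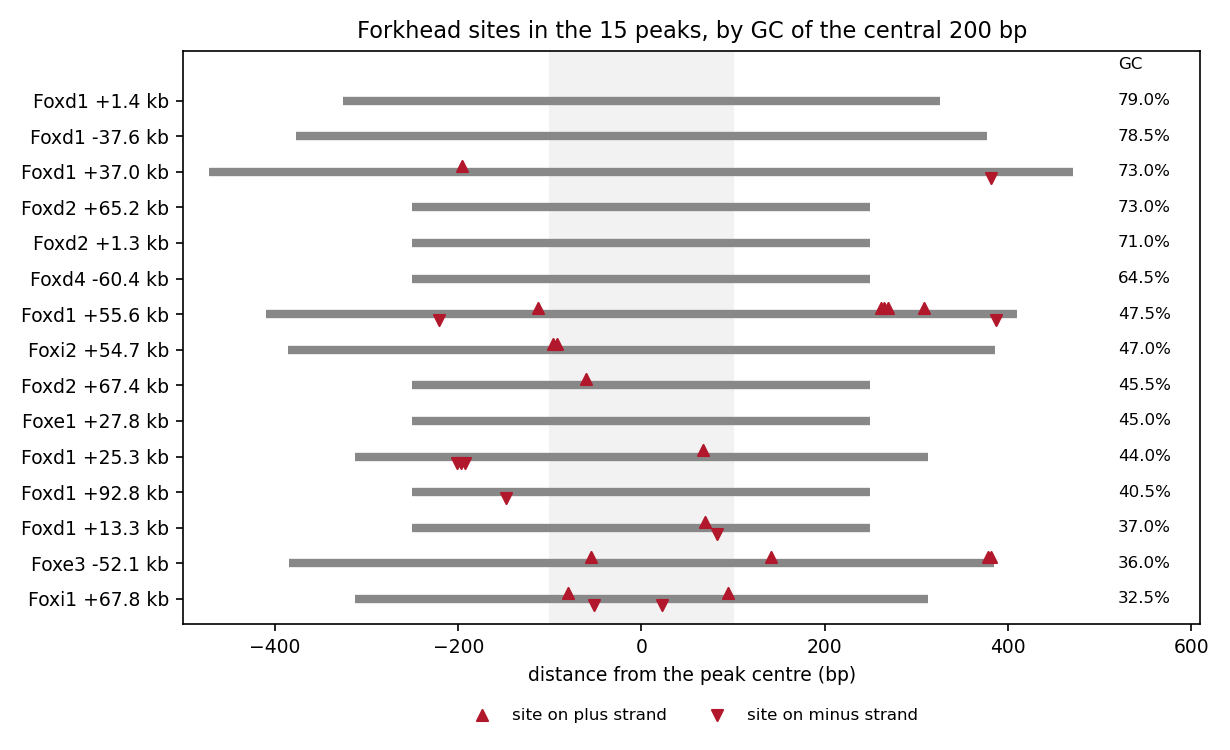
Forkhead sites (red triangles, up on the plus and down on the minus strand) along each of the 15 peaks (grey bars), by distance in bp from the peak centre, with GC content of the central 200 bp at the right; rows run from the highest GC content at the top. The shaded band is the central 200 bp; the 6 peaks of 64.5% GC or more have no site in it, and the Foxi1 peak, at 32.5% GC, has 4.

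The share of these peaks with a forkhead site at the centre was near that of the whole list. A site was present in the central 200 bp of 6 of 15 peaks, against 40.8% of all peaks, and GTAAACA in 2 of 15 (Foxd1 +13.3 kb and Foxi1) against 15.3%. The whole list mixes 2357 peaks within 1 kb of a protein-coding TSS, 9.89% with a site, and 6808 farther away, 51.5% with one. Of the 15, only the peaks at Btf3 and Cbwd1 were within 1 kb of such a TSS, so the mix differed. In windows of the same length 2000 bp away toward lower coordinates, whatever the gene's strand, 6 of 15 had a site and none had GTAAACA. For all peaks the shares in such windows were 18.2% and 3.30%. The central count near these genes thus did not exceed that of their own flanks. Over the whole width of the peaks, 9 of 15 had at least 1 site and 27 sites were found in all, overlapping ones counted separately. In the central 100 bp only the Foxi1 peak held a site. No share over all peaks is given for either window, and the 15 peaks were wider than the others. These 2 counts therefore cannot be called high or low. Among sequences of other factors, the AP-2 site GCCNNNGGC was present in 4 of 15 centres, all of them GC-rich, against 11.8% of all peaks. The SOX sequences AACAAAG or AACAATG were present in 2 of 15 against 10.7%, in both cases sharing bases with a forkhead site, and TGTGGTT (RUNX), CATCTG (E-box) and TAATTA (homeobox) in 1 of 15 each, against 5.11%, 16.1% and 5.71%.

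**Figure D4:**
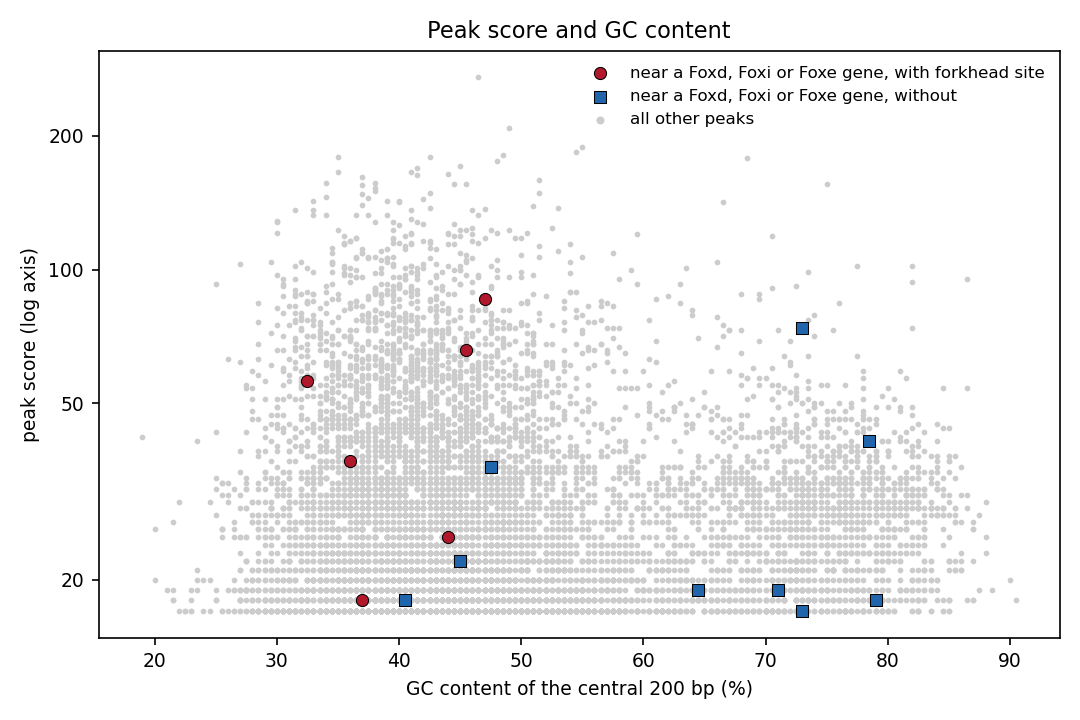
Peak score (log axis) against GC content of the central 200 bp for the 15 peaks near the Foxd, Foxi and Foxe genes, with a forkhead site (red circles) or without (blue squares), and for all other peaks (grey). The Foxi2, Foxd2 +67.4 kb and Foxi1 peaks, with scores of 86, 66 and 56, are below 60% GC with a site, and the Foxd1 +37.0 kb peak, with a score of 74, is GC-rich without one.

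The rest of the forkhead family was compared as the nearest relatives. Of 34 other forkhead genes found in the annotation, 25 (73.5%) had a peak within 100 kb and 18 (52.9%) had an assigned one, against 7 and 4 of the 9 (77.8% and 44.4%). The median number of peaks within 100 kb was 1 for the 9 genes, 1.5 for the other forkhead genes and 1 for all protein-coding genes. The highest scores among the others were 128 at Foxo3, 90 at Foxp2, 73 at Foxk1 and 65 at Foxn4, so Foxi2 (86) and Foxd1 (74) ranked between Foxp2 and Foxk1. The Foxn4 peak lay 83.6 kb from its TSS with another gene nearer. Foxf2 itself had 3 peaks with a best score of 49. Foxd1 had as many peaks as the neighbours Foxc2 and Foxf1, with 7 each, which share a locus and peaks.

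**Figure D5:**
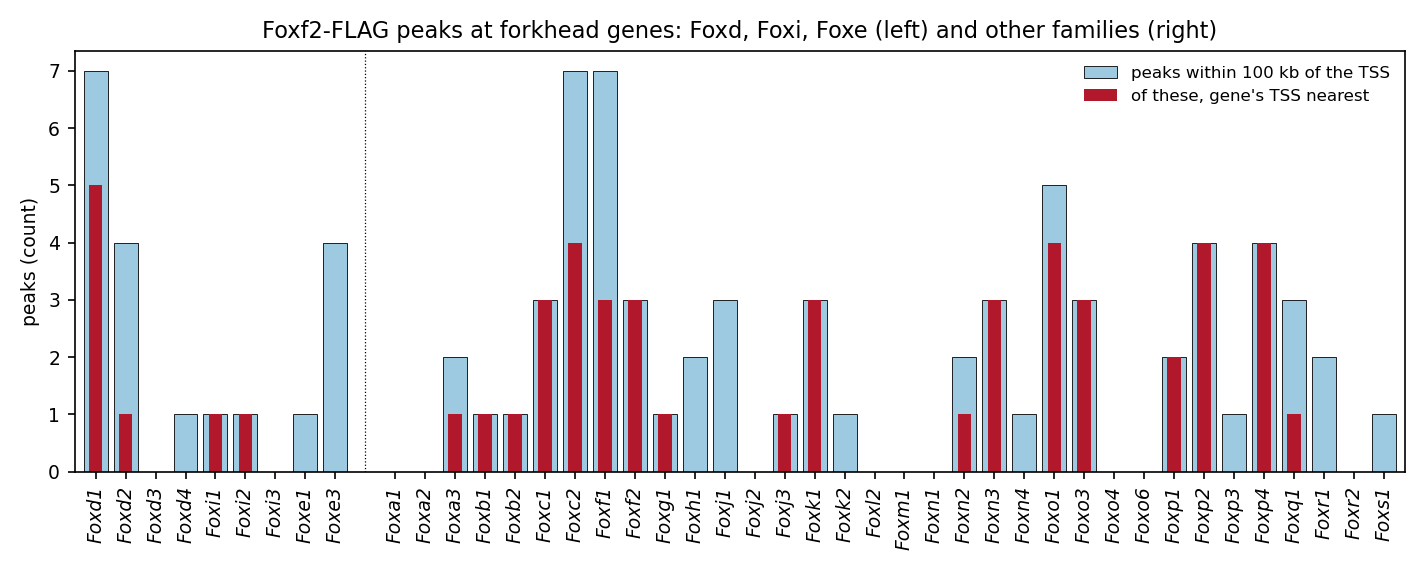
Number of Foxf2-FLAG peaks within 100 kb of the TSS (blue bars) and of peaks for which the gene's TSS was the nearest (red bars) for Foxd, Foxi and Foxe genes, left of the dotted line, and for 34 other forkhead genes, right. Foxd1 has 7 and 5, and Foxe3 has 4 and 0.

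Genes of the tissues in which Foxd, Foxi and Foxe genes are known to act were counted in the same way. A peak lay within 100 kb of 16 of 22 neural crest genes, led by Twist1 (score 209), Tfap2b (77), Ets1 (68) and Msx2 (57). The count was 21 of 25 for placode and arch genes, among them Trp63 (87) and Eya2 (71). It was 8 of 11 for thyroid genes, among them Thra (37), Duox2 and Duoxa2 (a shared peak, 26). Of lens and eye genes 11 of 15 had one, led by Maf (49), Meis1 (43), Mab21l2 (39) and Lhx2 (34). Of genes of renal stroma, where Foxd1 is known to act, 10 of 12 had one, among them Meis2 (157), Ecm1 (40) and Pdgfrb (39). Of the genes named here, Duox2, Duoxa2 and Ecm1 had no assigned peak, another gene being nearer. These shares, 72.7% to 84.0%, stood beside 77.8% for the 9 forkhead genes and 54.9% for all protein-coding genes.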

How the data were processed

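Per the file headers, HOMER findPeaks in histone style made the peak list from 1 ChIP and 1 input library, with a 10-fold limit over input and over the surrounding 10000 bp. Alignment was to mm9, with Bowtie 1.0.0, SAMtools 0.1.19 and HOMER named, per the submitters' processing notes. Normalized signal is the authors' ChIP tag number per 10000000 tags, and it was returned to tags with the header's total (all within 0.134 of a whole number). The deposited fold (a ratio), p-value and score are the authors', and p-values and the deposited clonal fold were not used here. No separate input file was analysed here.

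Coordinates are given 1-based as deposited. Genes are GENCODE vM1 on NCBIM37, the assembly of mm9, and distances run from the peak centre to the nearest TSS of a protein-coding transcript. Fold intervals are exact, conditional on both tag counts, and cover counting error only, since variation between libraries could not be measured. The peak caller's setting was at most 1 tag per bp. Peaks without a replicate have no replicate check, and no test between conditions was run. Uniqueness was counted over 32-base words on both strands. Tools were Python 3.11.15, SciPy 1.17.1 and pysam 0.24.0, tested on simulated data.

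The 9 genes and the lists (other forkhead, neural crest, placode and arch, thyroid, lens and eye, renal stroma) were chosen with earlier results of these data known. Named were the 9 genes, genes with a nearer TSS, Foxf2, and the 4 of each list with the highest-scoring peak, some of which are not reported here; Foxc2, Foxf1, Eif2ak3, Fam196b and Gm12121 were added after their values were seen.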

Additional observations from a re-analysis of the deposited data

How the results depend on the processing

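Counts near the 9 genes depended mainly on the distance limit and on which peaks were kept. With a limit of 50 kb, 4 genes had a peak (37.7% of all protein-coding genes) and 7 distinct peaks remained in reach. At that limit 2 genes had an assigned peak, without a share of all genes beside it. With a limit of 200 kb there were 28 distinct peaks. Keeping the upper 50% of peaks by score left 8 distinct peaks, keeping the upper 50% by ChIP tags (a choice made after seeing the data) also left 8, and keeping peaks at least 15-fold over input left 7. Within 5 kb of a TSS, 2 genes had a peak (14.4% of all protein-coding genes). Centres with GTAAACA numbered 2 (15.3% of all peaks), and centres with a site in the central 100 bp numbered 1, without a share over all peaks. The other 21 of 31 alternatives to these counts and to the median fold stayed within 1.5 times the reported count or inside the fold's interval. Adding 1 tag kept each of the 15 folds inside its own interval. Some of these could hardly have moved, so they are no measure of stability. With 9 genes, a count of 7 cannot rise 1.5-fold. Foxi3, the only 1 of the 9 with 2 TSSs, had no peak within 100 kb, so using the gene start alone could not change the genes with a peak. The fold intervals are wide for 1 added tag. No paired analysis was possible because there was 1 library of each kind. Depth limits the folds: with 0 to 7 input tags per peak, no order of the 15 folds can be read.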

Other observations

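Foxf2-FLAG peaks with more tags or a higher score than any of the 15 lay between 100 and 200 kb from the TSSs of Foxd1 and Foxd4, outside the limit used above. Downstream of Foxd1 a pair of peaks at 149.3 and 150.9 kb (chromosome 13:99272908-99274026 and 99274571-99275646) held 192 and 191 ChIP tags, and 7 and 9 input tags (19.7-fold, 9.35 to 49.5, and 15.2-fold, 7.84 to 33.8), more tags than any of the 15 peaks within 100 kb. Their scores were 52 and 19, and the predicted gene Gm10320 was the nearest, at 11.5 and 13.2 kb. A peak 170.5 kb downstream of Foxd4, in an intron of Pgm5, scored 114, above all 15, with 113 ChIP and 7 input tags (11.6-fold, 5.43 to 29.4) and 1 forkhead site.

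Beyond the weak peak in the Foxd2 coding sequence, 5 peaks lay 109.8 to 128.5 kb downstream of Foxd2, the first of them just outside the limit with 15 ChIP and 1 input tag. The others had 17 to 36 ChIP tags against 1 or 2 input tags, all were intergenic, and Gm12830 was nearest to each. Together with the peaks nearer by, 9 peaks lay within 200 kb of both Foxd2 and Foxe3.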
